A study of Mus musculus with 3 samples.

Results

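Naive mouse CD4+ T cells were compared with CD4+ T cells that had been activated for 48 h but had not yet divided. Both samples were read as full-length cDNA on the PacBio platform (Iso-Seq), in which one molecule is read from its 5′ to its 3′ end and identical molecules are collapsed into an isoform. The 2 libraries were taken, by their labels, from a series of 3, and the remaining one, from cells at the same 48 h that had gone through 2 divisions, is given beside them as a further value only. The naive library held 10527 isoforms, the undivided library 12602, and the library of cells with 2 divisions 11109.

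The cells came from spleens and lymph nodes of wild-type male C57BL/6N mice, which the methods give as several weeks old. Naive CD4+ T cells were enriched by magnetic negative selection and labelled with CellTrace Violet, a dye that is diluted at each division, and the naive sample was lysed at that point, without stimulation. The activated cells were kept on plate-bound anti-CD3 with anti-CD28 and were sorted on the dye peaks, so that cell division 0 is the peak with undiluted dye. The study describes this peak as mixed, since most but not all of its cells had raised the activation markers CD69 and CD25. Each condition was 1 library of cells (the number of mice is not given in the sources used here), so no spread between replicates exists, no test was made, and each difference is one between these libraries. The labels also place the naive library on one sequencing cell and both activated libraries on another, so activation and sequencing cell cannot be told apart.

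A naive T cell is small and metabolically quiet. Signals from the T cell receptor and CD28 cause it to leave quiescence, enlarge its ribosome and protein-folding machinery, take up nutrients and enter the cell cycle, and a large part of this growth comes before the first division. A gene can also change which transcript it makes, through another promoter (another first exon), another choice of introns, or cleavage and polyadenylation at another place, which sets the length of the last exon and with it of most 3′ untranslated regions. T cells that are activated and proliferate are known for a shift towards nearer polyadenylation sites.

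The files give exon coordinates of isoforms on the mouse genome build GRCm38, without read numbers. The depth behind an isoform is therefore unknown, and an isoform number is the number of distinct structures seen for a gene, not its expression level. A gene that is not seen is one with no isoform in this low-coverage survey. Intervals in brackets are 95% exact (Clopper-Pearson) intervals, and they cover counting error only. Multi-exon isoforms made up 85.9% of the naive and 93.0% of the undivided library, with a median of 9 exons in both. The CD4 T cell markers were present as labelled: all 14 genes of that list were seen in the naive library and 12 in the undivided library, where Cd3g (2 naive isoforms) and Trac (2 naive isoforms) were not. Of 16 B cell markers, 9 were seen in the naive library with 25 isoforms in all, 12 of them of Ighm, against 2 markers and 6 isoforms in the undivided library, 5 of them of Ighm. The defining B cell gene Ms4a1 (2 isoforms) was seen in the naive library only, and Cd79a and Pax5 in neither. Of 10 erythroid and platelet markers, 2 were seen, both in the naive library alone. The part of such cells in the differences below was not tested.

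At least 1 isoform in either library was found for 6479 annotated genes, of which 3845 (59.3%, interval 58.1 to 60.5) were seen in both. A further 1731 genes (26.7%, 25.6 to 27.8) were seen only in the undivided library and 903 (13.9%, 13.1 to 14.8) only in the naive library. Most of these rested on a single isoform, namely 71.4% of the genes of the undivided library alone and 78.5% of those of the naive library alone. The library of cells with 2 divisions held 59.8% (57.5 to 62.2) of the genes of the undivided library alone and 27.4% (24.5 to 30.4) of those of the naive library alone. Among genes that had at least 2 isoforms in the one library and none in the other, the same shares were 83.4% (413 of 495) and 31.4% (61 of 194). When the undivided library was reduced to the naive isoform number by exact expectation, 5079.5 genes were left in it against 4748 in the naive library. The reduced undivided library held 8359.8 distinct intron chains (the ordered introns of a multi-exon isoform) against 7905, and 6129.4 distinct first exons against 5261. It also kept a larger share of multi-exon isoforms. At the naive number of multi-exon isoforms, 9047, the order of the chains was reversed, with 7806.9 undivided against 7905 naive ones. First exons stayed higher at that number, with 5809.4 against 5261, and last exons were lower, with 5321.8 against 5403. For the 3′ ends of all isoforms the reduced undivided library held 7455.7 against 7694. These ends include those of isoforms on no annotated gene of their strand, 917 in the naive and 316 in the undivided library. The part of such isoforms in this order was not tested.

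Over the 6479 genes, the undivided library had more isoforms of 3180 genes (49.1%) and fewer of 1725 (26.6%), with a median difference of 0. A difference of at least 3 isoforms towards the undivided library was found for 495 genes (7.64%) and towards the naive library for 245 (3.78%). When each undivided isoform number was scaled to the naive library size, these numbers were 218 and 249. Scaling leaves out the scatter of drawing isoforms, so they are not the numbers expected from a thinned library.

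Several genes with the most isoforms among those seen only in the undivided library encode receptors, regulators and cell cycle proteins. Zbtb32, which encodes a transcriptional repressor of activated lymphocytes, had 0 isoforms in the naive library, 13 in the undivided library and 17 after 2 divisions. Of the 13, 12 spanned a whole annotated coding sequence. Here and below, this means the coding sequence of any complete coding transcript annotated for the gene, which need not be the longest. Il2ra, the high-affinity IL-2 receptor chain CD25, had 0, 10 and 6 isoforms, of which 6 of the 10 undivided ones were coding in full. Bhlhe40, a basic helix-loop-helix transcription factor, had 8 undivided isoforms, 5 with the whole coding sequence. Cep55, needed for the last step of cytokinesis, had 9 undivided isoforms, 8 of them with the whole coding sequence. Uhrf1, which directs maintenance DNA methylation behind the replication fork, had 7. Transcripts of a cytokinesis and a replication gene were thus present in cells whose dye had not been diluted. The remaining genes at the top of this order were Gm42047 (14 isoforms, none coding in full), Tnfrsf4 (10), Serpinb6b (8), Tfrc (8) and Ccdc50 (7).

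Among genes seen only in the naive library, Add3, which encodes an adducin of the membrane skeleton, had the most isoforms, with 12, and 3 in cells with 2 divisions. S1pr1, the receptor by which T cells leave lymph nodes, had 9, all with the whole coding sequence. Il7r, the receptor for the survival cytokine IL-7, had 7 naive isoforms, 3 of them coding in full. Dock8, an exchange factor for Cdc42 that keeps migrating lymphocytes intact, had 6 naive isoforms and 0 in each activated library, and none of the 6 held the whole coding sequence. Pecam1, an adhesion receptor, had 6, and Trib2, a pseudokinase, had 6. Ripor2 also had 6. Gm45552 (11 isoforms), Ctsw (5) and Gm14085 (5) completed the first 10.

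Of the genes seen in both libraries, Nop56, a core protein of box C/D small nucleolar particles, went from 9 to 30 isoforms. Of these, 4 naive and 18 undivided isoforms kept at least one annotated intron, and 7 and 13 held the whole coding sequence. Pkm, pyruvate kinase, had 3 and 24 isoforms, of which 1 and 6 were coding in full. Hsp90b1, a chaperone of the endoplasmic reticulum, had 3 and 19 isoforms. Traf1, a signaling adaptor of TNF receptors, had 3 and 18, of which 2 and 11 held the whole coding sequence. For the translation factors the added structures were mostly partial: Eef2 had 3 and 17 isoforms with 2 coding in full in each library, and Eif3a 4 and 19 isoforms with 2 in each. Ncl (nucleolin) had 4 and 19, Gzmb (granzyme B) 1 and 15, Pabpc1 (poly(A)-binding protein) 9 and 21, and Hnrnpa2b1 26 and 45.

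Several genes with the greatest loss of isoforms act in T cell signaling or gene regulation. Dgka, the kinase that removes diacylglycerol below the T cell receptor, had 36 naive and 5 undivided isoforms, and 6 and 2 of them held the whole coding sequence. Foxp1, a transcription factor of naive T cell quiescence, had 15 and 5. Mbnl1, a splicing regulator, had 14 naive, 3 undivided and 2 isoforms after 2 divisions. Stk17b, a kinase that limits receptor signaling, had 12 and 3 isoforms, with 8 and 3 coding in full. Skap1, an adaptor that links the receptor to integrins, had 11 and 2 isoforms, with 6 and 2 coding in full. Arhgap45 (28 and 7), Ablim1 (14 and 4), Arhgap15 (13 and 3), Inpp4b (13 and 4) and Traf3ip3 (13 and 4) made up the rest of the first 10.

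**Figure D1:**
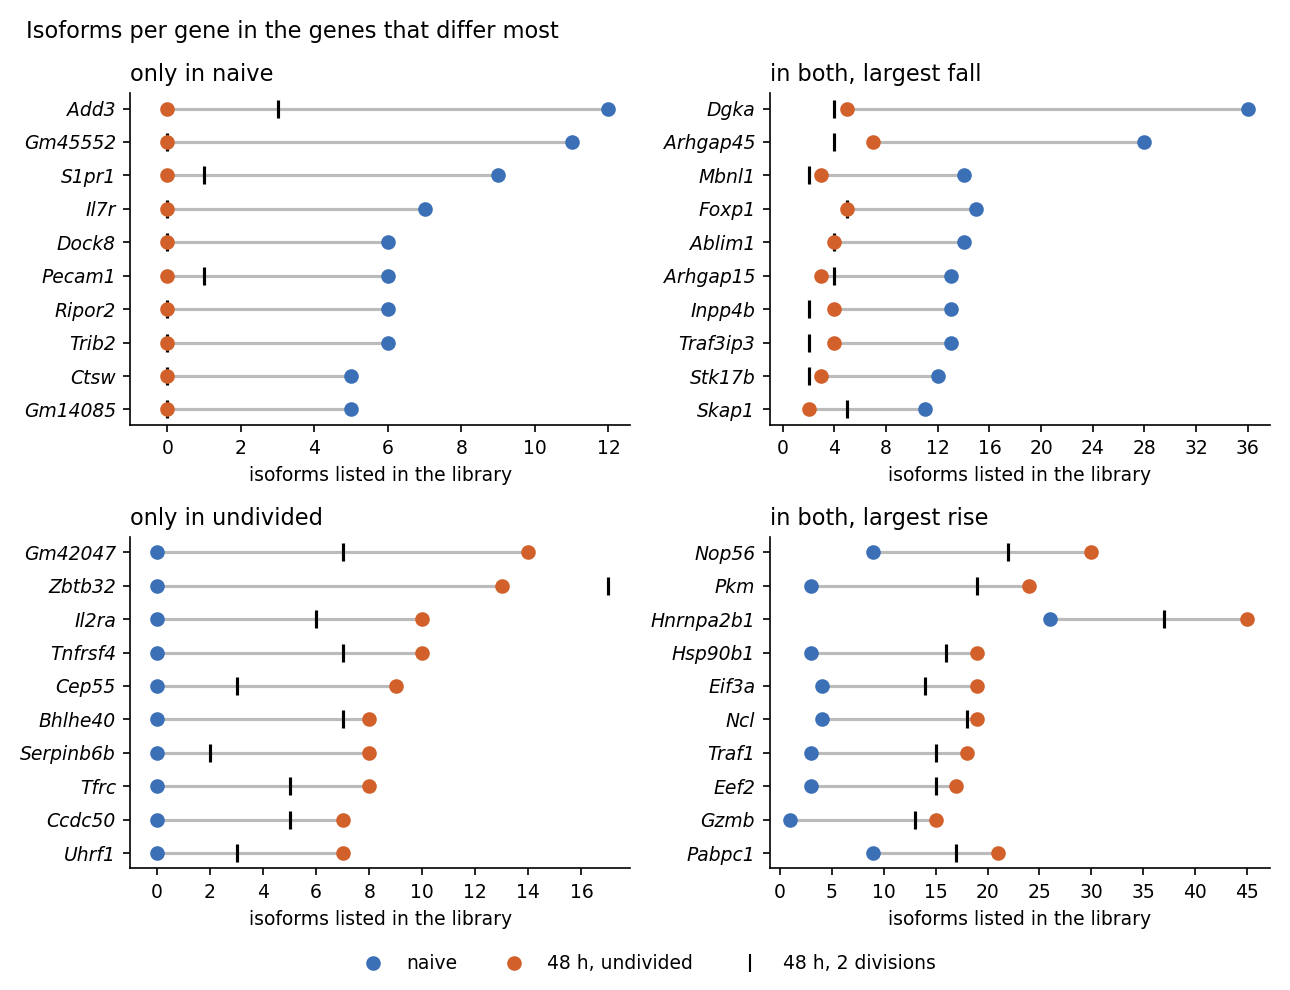
Isoforms per gene (horizontal axis, number of isoforms) in the naive library and in the undivided 48 h library (dots), with the library of cells with 2 divisions as a black tick, for the 10 first genes of each of the 4 orders: seen only in the undivided library, seen only in the naive library, most isoforms gained and most isoforms lost. Dgka shows the widest gap towards the naive library, from 36 to 5, and Nop56 and Pkm both gained 21 isoforms.

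Most of the seen genes of the naive and quiescent list had fewer isoforms in the undivided library. Of the 22 genes of this list that were seen, 16 had fewer isoforms, 5 more and 1 the same, with a median difference of -3 against 0 over all genes. Among all genes, 26.6% had fewer isoforms and 49.1% more. The list as a whole went from 181 to 73 isoforms, or 61 after thinning. Dgka (36 and 5) and Arhgap45 (28 and 7), ranks 1 and 2 in loss above, were members. This list and those that follow were chosen with earlier results of these data known, so their shifts are descriptions only. Lef1, a transcription factor of naive T cells, had 15 naive, 8 undivided and 5 isoforms after 2 divisions. Pik3ip1, an inhibitor of PI3 kinase, had 4, 0 and 0, and the transcription factor Ets1 had 3, 0 and 1. The list was not uniform: Satb1, a chromatin organizer, had 7 naive and 10 undivided isoforms, and Ccr7, the homing chemokine receptor, 3 and 6.

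Genes induced by T cell receptor stimulation showed the opposite: 22 of the 27 seen had more isoforms in undivided cells, 2 fewer and 3 the same, with a median of 3 more. The shares over all genes were 49.1% with more and 26.6% with fewer. Together they went from 29 to 131 isoforms, or 109.4 after thinning, and 13 of the 27 genes were seen in the undivided library alone, where 26.7% of all genes were. Irf4, a transcription factor set by receptor signal strength, had 0 naive, 5 undivided and 3 isoforms after 2 divisions. Nr4a1, an immediate early nuclear receptor, was not limited to activated cells, with 3 naive, 9 undivided and 6 isoforms after 2 divisions. Tnfrsf9, the 4-1BB receptor, had 0, 5 and 4 isoforms, and Cd200, an inhibitory ligand, 0, 6 and 6.

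DNA replication and cell cycle genes were seen in undivided cells nearly throughout. Of the 35 genes seen, 34 had more isoforms in undivided cells, 0 fewer and 1 the same, and 22 were seen only there, against 49.1%, 26.6% and 26.7% of all genes with more, with fewer and seen only there. The list went from 15 to 107 isoforms, or 89.4 after thinning. All 36 genes of the list were seen in the cells with 2 divisions.

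The lists for cell growth also held more isoforms in undivided cells, and their counts stand beside 49.1% of all genes with more and 26.6% with fewer. For glycolysis, 12 of 16 genes had more isoforms and 2 fewer, with 24 and 77 isoforms in the naive and undivided libraries (64.3 after thinning). Of the ribosome biogenesis genes, 16 of 22 had more and 2 fewer, with 47 and 114 isoforms (95.2). Proteasome and protein folding genes had 64 and 133 isoforms (111.1), with 21 of 26 genes higher and 2 lower in isoform number. For mitochondrial and one-carbon metabolism, 17 of 20 genes had more and 1 fewer, with 22 and 52 isoforms (43.4). Shmt2, the mitochondrial enzyme that takes one-carbon units from serine, had 2 naive, 8 undivided and 10 isoforms after 2 divisions. Mthfd2, the next enzyme of that pathway, had 1, 4 and 7, whereas Ndufa4 of the respiratory chain was seen once, in the naive library.

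Splicing factor genes had 216 naive and 261 undivided isoforms, and the latter came to 218 after thinning, so the list kept its naive isoform number at equal library size. Within it, 21 of 33 genes had more isoforms, 8 fewer and 4 the same, where 49.1% of all genes had more and 26.6% fewer. Hnrnpa1 had 1 naive, 6 undivided and 5 isoforms after 2 divisions. Hnrnph1 had 4, 11 and 7, and Tra2b, an activator of exon inclusion, 5, 10 and 11. In the other direction, Celf2, a regulator of splicing in T cells, had 8, 4 and 3. The cleavage and polyadenylation genes had 55 and 63 isoforms (52.6 after thinning), with 6 of 21 genes having more, 7 fewer and 8 the same.

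The T cell receptor complex and its proximal signaling proteins did not shift in one direction, with 10 of 25 genes having more isoforms, 13 fewer and 2 the same. The shares of all genes were 49.1% with more and 26.6% with fewer. The list held 147 isoforms in each library, or 122.8 after thinning of the undivided one. Zap70, the kinase recruited to the phosphorylated receptor, had 2 naive, 8 undivided and 3 isoforms after 2 divisions, and Cd247, the zeta chain, 1, 4 and 3. Lck, the kinase that starts the signal, had 13, 7 and 8. The scavenger receptors Cd5 and Cd6, both of which restrain receptor signals, differed in direction, with 13, 21 and 17 isoforms of Cd5 and 12, 8 and 7 of Cd6. Of this list, 3 genes were seen in the naive library only, Cd3g and Plcg1 among them, and the kinase Fyn in the undivided library only.

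Adhesion, migration and cytoskeleton genes were also divided, with 9 of 23 having more isoforms, 11 fewer and 3 the same. Of all genes, 49.1% had more and 26.6% fewer. Integrin chains differed: Itga4 had 4, 1 and 0 isoforms and Itgb7 7, 2 and 1, while Itgb1 had 0, 2 and 1. Beta-actin, Actb, had 4 naive, 11 undivided and 12 isoforms after 2 divisions. Of the interferon response genes, 10 of 19 had more isoforms and 6 fewer, which is near the shares of all genes. Irf1 had 4, 9 and 5 isoforms and the guanylate-binding protein gene Gbp2 2, 6 and 4, against 9, 2 and 1 of Ifi203. Among p53 and apoptosis genes, 14 of 18 had more isoforms and 1 fewer, where 49.1% and 26.6% of all genes did, with 24 and 56 isoforms in all (46.8 after thinning). Both sides of apoptosis were among them: the death receptor Fas had 1 naive, 6 undivided and 3 isoforms after 2 divisions, and the survival gene Bcl2l1 (Bcl-xL) 1, 5 and 5. The cell cycle inhibitors p21 and p27 differed, with 0, 3 and 1 isoforms of Cdkn1a and 1, 0 and 0 of Cdkn1b.

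**Figure D2:**
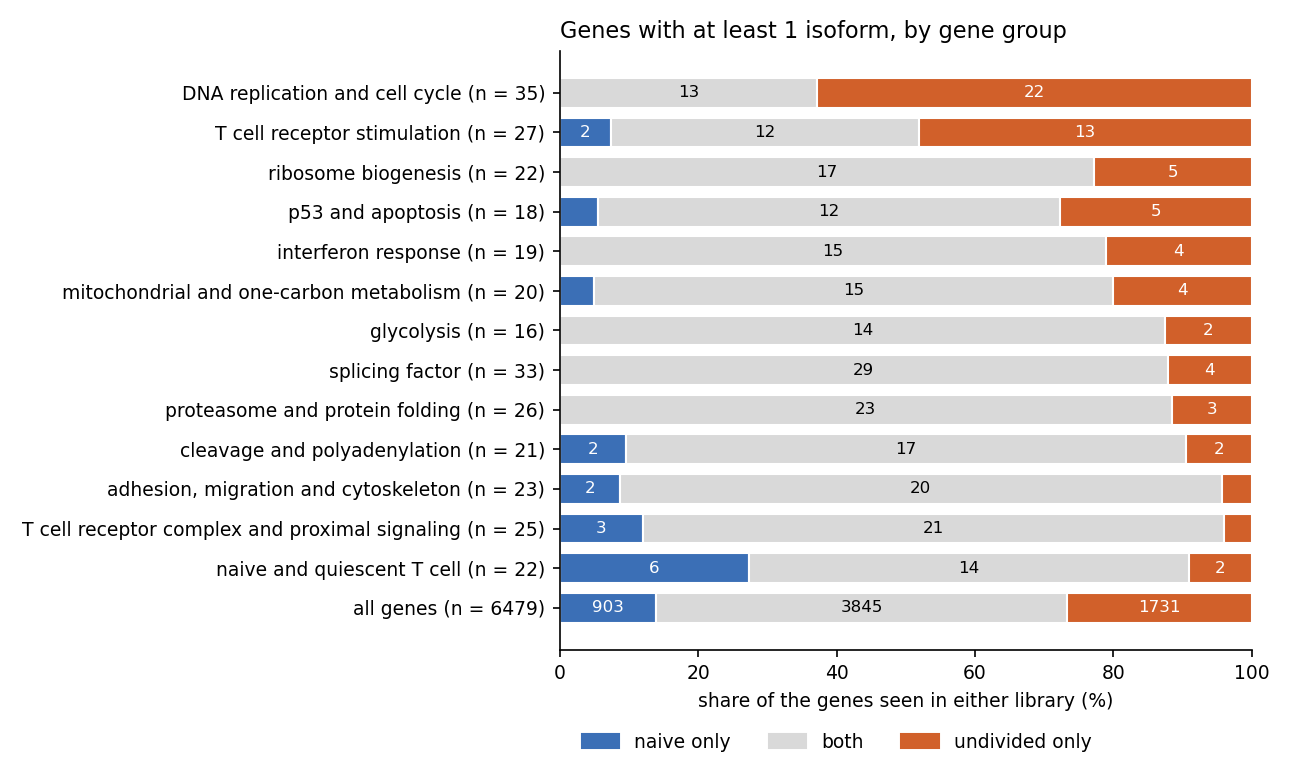
Share of the seen genes of each list (horizontal axis, percent of genes seen in either library) that were seen only in the naive library, in both libraries, or only in the undivided 48 h library, with all 6479 genes as the bottom bar. DNA replication and cell cycle genes and T cell receptor stimulation genes have the widest parts for the undivided library alone, 22 of 35 and 13 of 27 genes, and the naive and quiescent list has 6 of 22 genes in the naive library alone.

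For genes seen in both libraries, the transcript structures were compared feature by feature. Of 3728 genes with a multi-exon isoform in each library, 40.8% had the same intron chains in both, and in 22.7% the naive chains were a subset of the undivided ones. The reverse held for 13.1%, and 14.5% shared only a part. No chain was shared in 334 genes (8.96%). First exons, counted by their splice donor, were the same in 72.1% of the genes and fully different in 92 (2.47%). Last exons, counted by their splice acceptor, were the same in 78.4% and fully different in 82 (2.2%). For 3′ ends, merged within 24 nt, 57.8% of 3845 genes had the same ends and 193 (5.02%) had none in common. Most of these genes had a single multi-exon isoform in at least one library. Among 1375 genes with at least 2 multi-exon isoforms in each library, 51 shared no chain, 11 no first exon and 2 no last exon, and 6 shared no 3′ end. The 2 without a common last exon were Rad50, a DNA break repair protein, and Ubr1, a ubiquitin ligase.

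Chains were found again less often than exon ends. In genes of both libraries, 64.5% (63.3 to 65.6) of 6748 naive chains were found in the undivided library, or 56.3% when that library was thinned, and 58.1% of 7493 undivided chains were found in the naive one. Of naive first exons 88.1% (87.1 to 89.0) were found again, and 80.3% with thinning. The reverse share, of undivided first exons found in the naive library, was 76.8%. For last exons the shares were 86.7% and 87.9%.

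**Figure D3:**
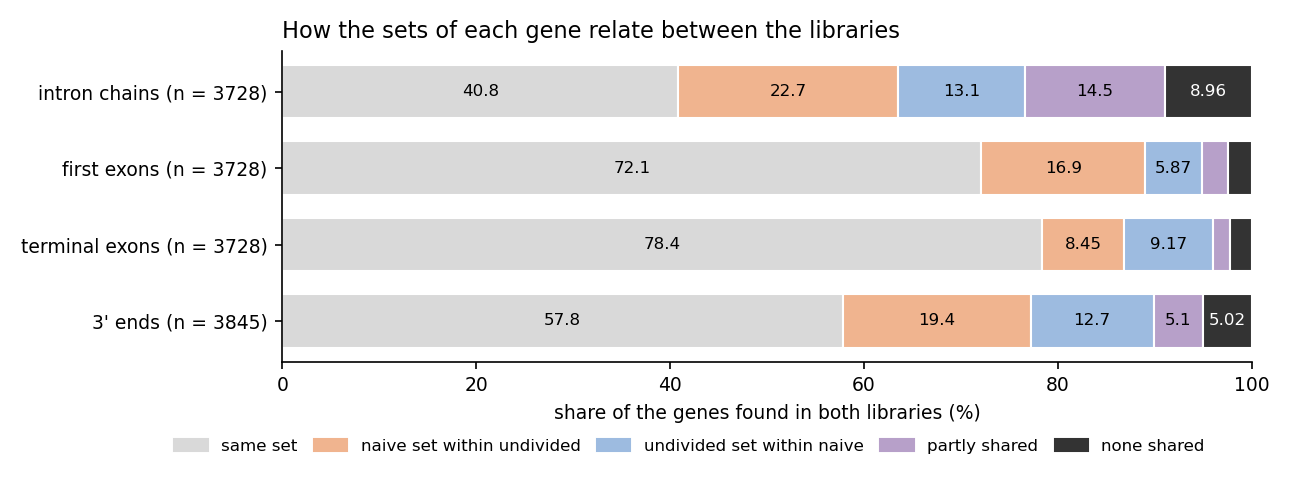
How the intron chains, first exons and last exons of 3728 genes, and the 3′ ends of 3845 genes, relate between the naive and the undivided 48 h library (horizontal axis, percent of genes). The part with no common feature is widest for intron chains, 8.96%, and narrowest for last exons, 2.2%.

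A fully different first exon was often a matter of where the 5′ end of an isoform lay. In 26 of the 92 genes (28.3%, 19.4 to 38.6) every undivided isoform started inside an exon of a naive isoform, and in 20 (21.7%) every naive isoform started inside an exon of an undivided one, and the part of shortened cDNA in these was not tested. In 45 genes (48.9%, 38.3 to 59.6) neither was the case. Of the 11 genes with at least 2 isoforms in each library, 7 were of this kind: Ncln, Dcaf11, Elmo1, Pced1b, Pym1, Slc12a7 and Trpv2. Parp10, a mono-ADP-ribosyltransferase, was one of those with starts inside, since both undivided isoforms began within the second exon of the 4 naive ones and the cells with 2 divisions used the naive first exon.

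Ncln encodes nicalin, a membrane protein of the endoplasmic reticulum, and lies on the minus strand of chromosome 10. All 3 naive isoforms used a donor at position 81498432 that GENCODE does not list, after a first exon of 1227 to 1228 nt. All 3 undivided isoforms and all 3 from cells with 2 divisions used the annotated donor at 81496080, and the nearest start sites of the 2 libraries were 3295 nt apart. The naive first exon does not lie in Ncln as annotated but inside the single exon of S1pr4, a sphingosine-1-phosphate receptor gene that stands upstream on the same strand (chr10:81497747-81500132), so these isoforms join a part of S1pr4 to Ncln. S1pr4 also had 1 single-exon isoform of its own in each library. Both first exons were joined to the same second exon, through an intron of 4892 nt in the naive isoforms. In Dcaf11, a substrate receptor of the CUL4-DDB1 ubiquitin ligase on the plus strand of chromosome 14, 3 of 3 naive isoforms used the donor at 55560121 and 2 of 2 undivided isoforms that at 55560975, with starts 868 nt apart, while in the cells with 2 divisions 2 isoforms used the naive donor and 1 another. In Trpv2, a cation channel on the plus strand of chromosome 11, 2 of 2 naive isoforms used the donor at 62574600 and 2 of 2 undivided isoforms that at 62576125, with starts 1359 nt apart and with the cells of 2 divisions like the undivided ones. That undivided donor is also the donor of the naive second exon of Trpv2, and the undivided starts lay just upstream of this exon, so the libraries differed in the exon before it and in the start, not in the junction after it. The letters across the first junction of Ncln and Dcaf11 are given 5′ to 3′ on the strand of the gene from the GRCm38 sequence of RefSeq, with the end of the first exon in capitals and the start of the second exon in lower case, and the positions in brackets are those of the capitals.
Ncln, naive (chr10:81498432-81498446): GCCCTCCCAGACGAGgcacgcggaatgcag
Ncln, undivided (chr10:81496080-81496094): AGGGCCAGCCATACGgcacgcggaatgcag
Dcaf11, naive (chr14:55560107-55560121): ACAAGACCCCCGCTGgtctcagctatccaa
Dcaf11, undivided (chr14:55560961-55560975): CGGGGACTTTGATAGgattgagaaaggttt

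The lower-case letters of both Ncln junctions are the same second exon. The Dcaf11 junctions are each from 1 isoform: the second exon varied within both libraries, and naive and undivided isoforms had second exons in common, so the capitals and not the lower-case letters mark the difference. The unannotated Ncln intron had the usual GT and AG at its ends, shown in capitals with the neighbouring bases.
Ncln, naive donor (chr10:81498412-81498441): cccagacgagGTgagaagggacaggacaca
Ncln, acceptor (chr10:81493530-81493559): tgaccccgtgtcccccatAGgcacgcggaa

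A pair of genes of T cell signaling was chosen for description after their values had been seen. Fyb encodes ADAP, the adaptor that carries the receptor signal to integrins, on the plus strand of chromosome 15. In it 8 of 9 naive isoforms used the donor at 6581046 and none the one at 6522913, which 4 of 8 undivided isoforms and 4 of 7 isoforms from cells with 2 divisions used. The naive donor was still used by 4 undivided isoforms and by 3 after 2 divisions, and the nearest starts at the 2 donors lay 57001 nt apart. The second exon of the undivided form ended at the naive donor, and the naive starts lay upstream of the acceptor of this exon at 6579921. Prkacb encodes a catalytic subunit of protein kinase A on the minus strand of chromosome 3, where 3 of 3 naive isoforms used the donor at 146781147 and the 1 undivided isoform that at 146812638, with starts 31485 nt apart. Both Prkacb forms spanned a whole coding sequence and shared their second exon, as the junctions show with the same use of capitals.
Fyb, naive (chr15:6581032-6581046): CTGACTCTGCAAACAgtgccaccaaaagcc
Fyb, undivided (chr15:6522899-6522913): TTTCCAATAAACATGgatggaaaaacagat
Prkacb, naive (chr3:146781147-146781161): CATGGGACAAATCAAtgaaagagtttctag
Prkacb, undivided (chr3:146812638-146812652): GCGAAGTGGAGAGCGtgaaagagtttctag

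Other changes of first exon were as wide. In Elmo1, a partner of Dock proteins in Rac activation, 3 of 3 naive isoforms used a donor at 20090771 of chromosome 13 and 2 of 2 undivided isoforms one at 20185504, with the nearest starts 94741 nt apart. The undivided first exon of Elmo1 was the second exon of the naive isoforms, and 1 of the 2 undivided starts lay inside it. Slc12a7, a potassium-chloride cotransporter on the same chromosome, had its nearest starts 30607 nt apart. Its 2 undivided isoforms used different donors, and 1 of their starts lay inside a naive exon. Among the p53 and apoptosis genes, Cflar (c-FLIP) and Bcl2l1 had no first exon in common, with the nearest starts 14643 and 969 nt apart, each on 1 naive isoform. Where an annotated first exon was shared, 3754 in all, the median difference between the 5′ ends was 0 nt, and 53.7% lay within 10 nt of each other.

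**Figure D4:**
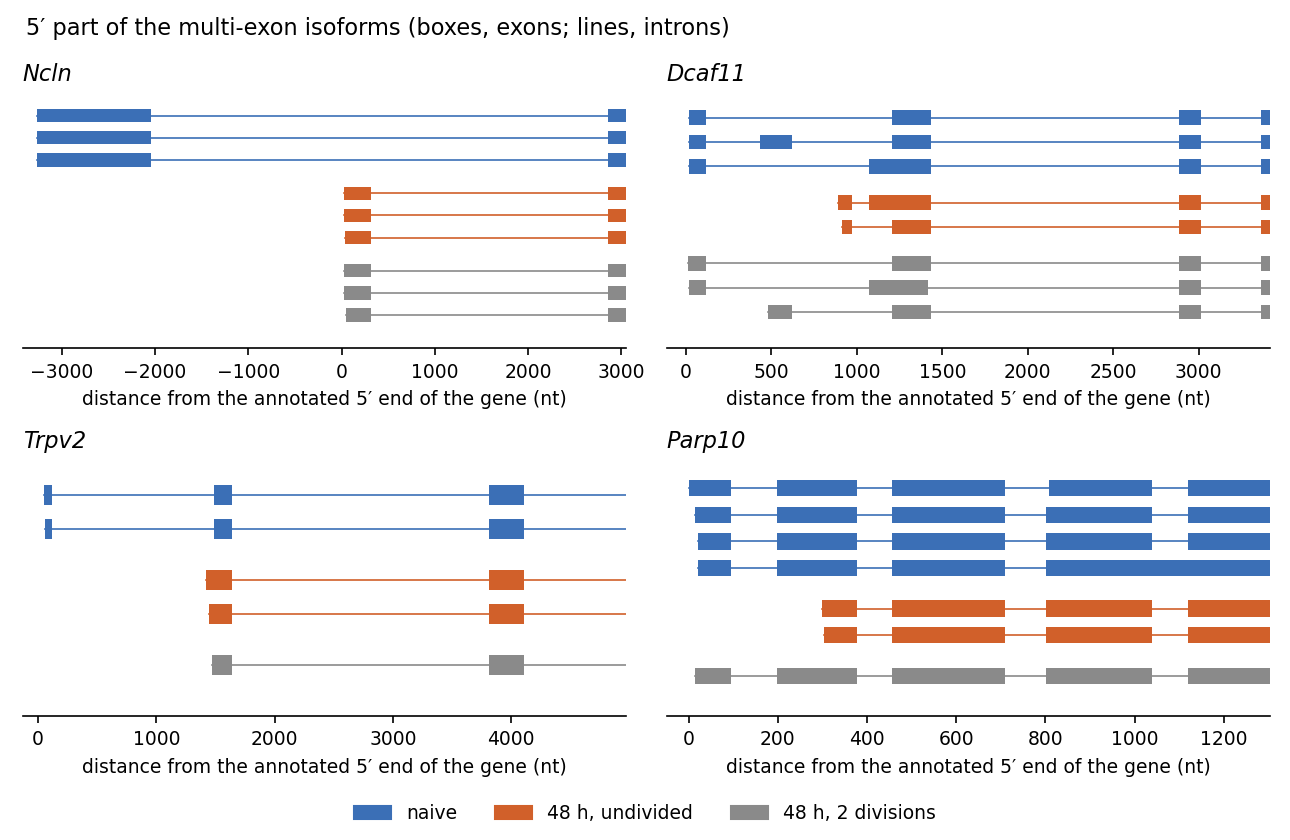
Exons at the 5′ end of Ncln, Dcaf11, Trpv2 and Parp10 (boxes, joined by intron lines; horizontal axis, distance in nt from the annotated 5′ end of the gene), 1 row per isoform and coloured by library. In Ncln all 3 naive isoforms begin with a long first exon, inside S1pr4, upstream of the first exon that all 3 undivided isoforms use, and in Parp10 both undivided isoforms start within the second exon of the naive ones.

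Inside the transcript, naive isoforms kept introns more often. An intron that GENCODE lists for the gene lay unspliced within an exon in 22.0% (21.2 to 22.9) of 8901 naive and 15.7% (15.1 to 16.4) of 11601 undivided multi-exon isoforms with a gene, and in 14.8% after 2 divisions. In coding genes seen in both libraries the shares were 22.3% and 16.5%. Of the chains not shared by both libraries, 40.4% (38.4 to 42.4) of 2396 naive and 24.1% (22.6 to 25.6) of 3141 undivided chains kept such an intron. A shorter part of a chain of the other library made up 28.0% of the unshared naive and 35.3% of the unshared undivided chains. Of all unshared chains, GENCODE listed 20.1% of the naive and 22.1% of the undivided ones.

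The difference in retained introns was not the same in every list. The naive and quiescent genes had a retained intron in 27.4% of 164 naive and 13.0% of 69 undivided isoforms, and the cleavage and polyadenylation genes in 22.4% of 49 and 6.78% of 59. Splicing factor genes, which are known for unproductive transcripts with retained introns, were above all genes in each library, with 37.1% (30.6 to 44.1) of 210 naive and 28.6% (23.2 to 34.6) of 255 undivided isoforms. In other lists the undivided share was not lower: it was 31.1% of 119 against 25.0% of 24 for receptor stimulation genes, and 24.1% against 21.3% for ribosome biogenesis genes. The intervals of the 2 libraries overlapped in each of these lists.

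Single introns account for part of these numbers. In Arhgap45, which encodes a GTPase-activating protein, the intron at chr10:80021684-80021794 (111 nt) was kept in 11 of 28 naive, 3 of 7 undivided and 2 of 4 isoforms of cells with 2 divisions, so that the shares were alike while the isoform number was not. Ctsw, the protease cathepsin W, kept the intron at chr19:5466312-5466388 in 4 of 5 naive isoforms. In genes of activated cells, Tnfrsf4, the costimulatory receptor OX40, kept the intron at chr4:156015010-156015299 in 7 of 10 undivided isoforms and in 5 of 7 after 2 divisions. Zbtb32 kept the intron at chr7:30590870-30591056 in 7 of 13 undivided isoforms, and 12 of the 13 spanned a whole annotated coding sequence. Of the 10 Tnfrsf4 isoforms, 1 did.

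Dgka differed in an unannotated intron and in the first exon that precedes it. An intron at chr10:128743993-128744807 (815 nt) that GENCODE does not list was found in 18 of 36 naive isoforms, 0 of 5 undivided isoforms and 2 of 4 from cells with 2 divisions. The annotated intron with the same donor, chr10:128744041-128744807, was found in 6 naive isoforms and in neither activated library. Both introns begin after the donor at 128744808, which was the donor of the first exon in 21 of 34 multi-exon naive isoforms, 1 of 5 undivided isoforms and 2 of 4 after 2 divisions. Of the 5 undivided isoforms, 4 began instead at the downstream annotated donor 128743796, used by 3 naive isoforms, and could not hold either intron. The acceptors of these introns were 48 nt apart, and both end in AG, printed in capitals with the bases on either side, as is the GT of their common donor.
Dgka, common donor (chr10:128744788-128744817): ccaataacagGTaggaggaactgaaaggct
Dgka, annotated acceptor (chr10:128744031-128744060): acccgtcccctcctgtccAGctcgggctcc
Dgka, unannotated acceptor (chr10:128743983-128744012): gtgcgctctcttgggtcaAGgtagagcccc

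Traf3ip3, an adaptor of lymphocyte development, also had an unannotated intron, at chr1:193194557-193195060, but it was found in each library, in 10 of 13 naive, 4 of 4 undivided and 2 of 2 isoforms after 2 divisions.

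The share of multi-exon isoforms of coding genes that held a whole annotated coding sequence was 61.6% in the naive and 63.7% in the undivided library. By gene, of 3789 coding genes seen in both, 3206 (84.6%) had such an isoform in both libraries, 208 (5.49%) in the undivided library alone, 93 (2.45%) in the naive library alone and 282 (7.44%) in neither. Ncln was among the genes with one in the undivided library alone, since none of its 3 naive isoforms and 1 of 3 undivided ones reached through the coding sequence.

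For the 3′ end, isoforms that shared the acceptor of the last exon, on an annotated gene or not, were taken as a family. The mean length of that exon was compared. Of 3961 families present in both libraries, 518 (13.1%) were over 100 nt shorter in undivided cells and 226 (5.71%) over 100 nt longer, and 3217 (81.2%) lay within 100 nt. The median of the shorter families was -360.3 nt and that of the longer ones 291 nt. A shorter mean was seldom a full change of site: in 450 of the 518 shorter families (86.9%) at least one 3′ end was still common to both libraries, as in 194 of the 226 longer ones (85.8%). When the longest exon of each library took the place of the mean, the shorter share of the families that changed was 54.5% instead of 69.6%. The mean of the cells with 2 divisions was nearer to the undivided than to the naive mean in 321 of 458 shorter families (70.1%) and in 90 of 187 longer ones (48.1%).

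Among families with at least 2 isoforms in each library, the widest shortening was in Luc7l, a protein of the U1 small nuclear particle. In this family the last exon measured 3883 and 3885 nt in 2 naive isoforms and 344 and 360 nt in 2 undivided ones. The libraries had no end in common there, and the 1 family isoform from cells with 2 divisions had 3879 nt. Luc7l had 4 naive and 5 undivided isoforms in all, and 5 after 2 divisions. Over all of its isoforms, the naive and undivided libraries had a 3′ end in common. Sms, spermine synthase, had naive last exons of 526, 2324 and 2325 nt and undivided ones of 476, 519, 519 and 522 nt, with 477, 512 and 524 nt after 2 divisions. Nup50, a nuclear pore protein, had 362 and 3310 nt in naive cells, 361 and 418 nt in undivided cells and again 362 and 3310 nt after 2 divisions. In these families, cells with 2 divisions held only the shorter ends of Sms, only the longer of Luc7l, and both of Nup50. The last bases of the longer and the shorter forms show a polyadenylation signal, AATAAA or ATTAAA in capitals, in the stretch before each cleavage site, on the strand of the gene.
Luc7l, naive, 3883 nt (chr17:26285478-26285507): gtgagccaAATAAAccttccctcagttgct
Luc7l, undivided, 344 nt (chr17:26281939-26281968): ggaacaAATAAAtctggcggctgcctcctg
Sms, naive, 2325 nt (chrX:157443852-157443881): atctgtctctcAATAAAtggatcaatttca
Sms, undivided, 522 nt (chrX:157445655-157445684): agtgcttcaATTAAAatgacaaaggagacc
Nup50, naive, 3310 nt (chr15:84942926-84942955): atccatgaaatgtgAATAAAtggaaagttg
Nup50, naive, 362 nt (chr15:84939978-84940007): ttaaggccAATAAAtcctttcagtgtgtcg

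Both sites of Luc7l and of Nup50 carry AATAAA, and in Sms the near site carries ATTAAA and the far one AATAAA. The other families at the top of this order kept a common end. Rbm39, a splicing coactivator, went from 682 and 6826 nt to 682 and 1900 nt in the family of the acceptor at chr2:156179240. Most Rbm39 isoforms lay in another family, at chr2:156148191, with 13 naive and 9 undivided isoforms and means of 783.9 and 634.7 nt. In the ranked family, both naive ends, and the undivided one at 682 nt, were followed by an A-rich stretch of genome (at least 12 A in 20 nt). The part of A-rich ends in these lengths was not tested, here or in the families that follow. Slc30a7, a zinc transporter of the Golgi, had 699 and 5370 nt against 699, 700 and 767 nt, with an A-rich stretch after the 5370 nt end. Dcun1d1, a neddylation factor, had 2038, 2719 and 3593 nt against 472, 679 and 2039 nt, and the 679 nt end was A-rich. Ppp1r15b, which directs the phosphatase of eIF2alpha, had 3118 and 3135 nt against 350 and 3118 nt. In Fyb, 1 of 4 naive and 3 of 4 undivided last exons ended near 164 nt (162 nt in the naive library), the remaining ones near 2457 nt, and both of the isoforms from cells with 2 divisions ended at 164 nt. Neither AATAAA nor ATTAAA was found in the last 50 nt before the near ends of Fyb, on either side of activation, whereas the far ends had AATAAA. Gm8995 was the remaining gene of the first 10.

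The families of splicing factor genes were shorter more often than longer, 12 against 1 of 42, where 13.1% of all families were shorter and 5.71% longer, but 7 of the 12 came from only 3 genes, with 3 families of Hnrnpa2b1, 2 of Hnrnpk and 2 of Rbm39. The others were Luc7l, Ptbp3, Snrnp70, Srsf7 and Srsf10, and Srsf3 was the longer one. Srsf10, an SR protein that acts as a repressor when dephosphorylated, had a naive last exon of 1655 nt and undivided ones of 260, 1254, 1254 and 1648 nt. Among the cleavage and polyadenylation genes, 5 of 19 families were shorter (Cpsf2, Cpsf6, Pabpc1, Papola and Papolg) and 3 longer (Clp1, Wdr33 and Zfp36l1). Apart from Cpsf6 and Wdr33, each of these families had an A-rich end in at least 1 of the libraries. The families of Pabpc1 and Wdr33 rested on 1 isoform in each library. Cpsf6, a subunit of cleavage factor I, which itself favours distant polyadenylation sites, had naive last exons of 428, 434, 1254, 2180 and 4797 nt and undivided ones of 159, 428, 616 and 899 nt. In this family the farthest naive and the farthest undivided end both held AATAAA. A single-exon isoform of the undivided library, which has no splice acceptor and so stands outside the family, ended at the same base as the farthest naive isoform, 117344671, so the far end was still seen in undivided cells.
Cpsf6, naive, farthest end of the family (chr10:117344671-117344700): ttgtattgaaAATAAAaacaaagttttggt
Cpsf6, undivided, farthest end of the family (chr10:117348569-117348598): tgaaatAATAAAttgtgaactgctagcatt

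For the T cell receptor complex and proximal signaling genes, 1 family was shorter and 5 were longer of 31, against 13.1% and 5.71% of all families. The shorter one was Cd3d, the delta chain of CD3, with 150 and 1603 nt in naive cells and 149 nt in undivided cells. The longer ones were Cd4, Sla, Ubash3a and 2 families of Cd5. Cd4 had 524 nt once and 1572 nt in 2 naive isoforms, against 519 nt once and 1572 nt in 4 undivided isoforms, so both libraries held the same ends in another ratio. Ubash3a, a suppressor of receptor signaling, had 241, 854 and 1165 nt against a single 1167 nt. Cd3d ends are shown as an example in which the near and the far site both have the common signal.
Cd3d, naive, 1603 nt (chr9:44987846-44987875): atgctaaaAATAAAgatttatctttatttt
Cd3d, naive, 150 nt (chr9:44986393-44986422): caaccAATAAAgacgtttccttccgtcggc

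Other lists held few changed families, and with such numbers their shares cannot be set apart from the 13.1% shorter and 5.71% longer of all families. In mitochondrial and one-carbon metabolism, 4 of 15 were shorter (Cs, Cycs, Mthfd2 and Shmt1) and 1 longer (Atp5a1). Shmt1, the cytosolic serine enzyme, had 1205 nt in naive cells and 419 and 1205 nt in undivided cells, and Mthfd2 1103 nt against 395, 825, 1055 and 1103 nt. Both families of replication genes that changed were shorter, those of the ribonucleotide reductase subunits Rrm1 and Rrm2, of 13 families. Interferon response genes had 2 shorter (Ifi203 and Samhd1) and 3 longer families of 19, Irf9 and Trim30a among the latter. Adhesion genes had 2 shorter (Lcp1 and Wipf1) and 3 longer (Actb, Myh9 and Rac2) of 22. Proteasome and folding genes had 1 shorter and 3 longer of 30.

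Among the lengthened families, Lin7c, a scaffold protein of cell junctions, had 1831 and 3548 nt in naive and 3696 and 3724 nt in undivided cells, with no end in common and the 3724 nt end A-rich. Ppat, the first enzyme of purine synthesis, had 360 and 372 nt against 51, 359, 1956 and 2073 nt, with the 51 nt end A-rich. Nsrp1, a splicing regulator of nuclear speckles, had 571 nt in both naive isoforms against 571, 571, 1304 and 2461 nt, and each 571 nt end was A-rich while the longer ends had AATAAA. Rnf2, the ubiquitin ligase of Polycomb complex 1, had 1038 and 1903 nt against 1904, 1910 and 2008 nt. Zfp36l1, which binds AU-rich elements and destabilises mRNA, had 1281, 1851, 2318, 2724 and 2789 nt in naive and 2724 and 2789 nt in undivided cells, and the 1281, 1851, 2318 and 2724 nt ends of the naive library, like the 2724 nt end of the undivided one, were followed by an A-rich stretch. Scarb2, Slc12a7, Imp4, Slc25a46 and Sdf4 completed this order.

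**Figure D5:**
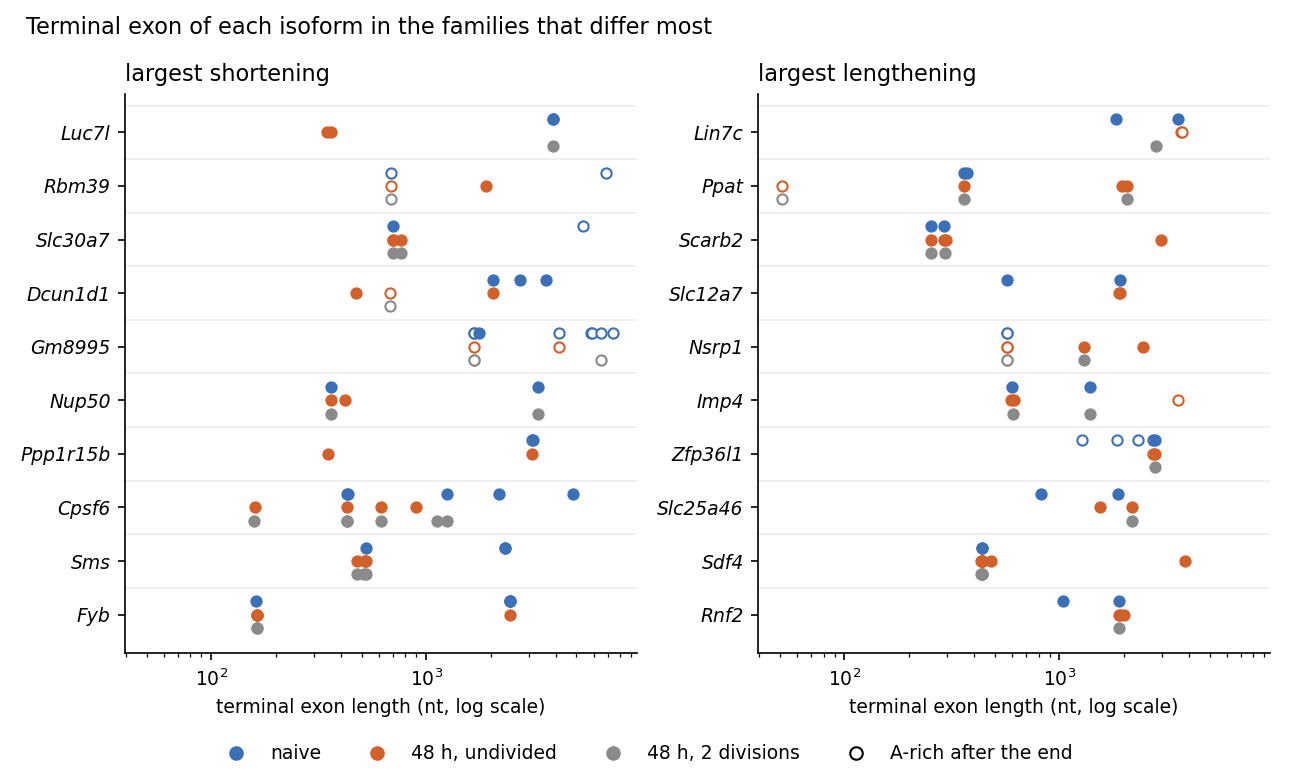
Length of the last exon in nt (horizontal log axis) of each isoform in the families with the greatest shortening and lengthening, by library. Open circles mark ends followed by an A-rich stretch of genome, and overlapping points hide each other. Luc7l has naive points at 3883 and 3885 nt and undivided points at 344 and 360 nt, and Lin7c is a family whose shorter naive point, 1831 nt, has no undivided counterpart.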

How the data were processed

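Per the labels and the study's methods, the authors sequenced cDNA of 3 libraries on the PacBio platform, made consensus reads and isoforms with ccs, lima and isoseq3, aligned them with pbmm2 and curated them with SQANTI3, with GENCODE v25 named as the annotation. The submitters' processing notes also list minimap2, Subread, mm10 and GRCm38. The deposited files hold other values than expression, namely exon coordinates of the isoforms of each library, with no read numbers. How isoforms with differing 5′ ends were collapsed is not given in the sources used here. Samples were grouped by the labels.

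Here each isoform was given to the gene of the GENCODE release M21 for GRCm38 on its strand with which it shared most splice sites (Python 3.11.15, numpy 2.4.6, scipy 1.17.1, matplotlib 3.10.9). Ends within 24 nt were merged, and a change of last exon length was one over 100 nt. An end was called A-rich where 12 or more of the following 20 nt were A, and signals were searched in the last 50 nt, of which the last 30 are printed. AATAAA was looked for before ATTAAA. Thinning is an exact hypergeometric expectation, except for the genes that differed by at least 3 isoforms. For those, each undivided number was scaled by the ratio of the library sizes. With 1 library a group there is no test. Named genes are the first 10 by isoform number seen in one library only, by gain and by loss, and by change of last exon, with the members of the lists and the genes with at least 2 isoforms in each library that shared no feature. The symbol Aldoa, which has 2 gene IDs, stands for the ID with most isoforms. The members and lists were chosen with earlier results of these data known. The alternatives changed the isoforms used, the number needed, merging distances, what counts as shared and the length measure. The code was tested on simulated data.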

Additional observations from a re-analysis of the deposited data

Results flagged for a closer look

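In the naive library 917 isoforms (8.78%, interval 8.25 to 9.34) lay on no annotated gene of their strand, against 316 (2.53%) in the undivided library and 334 (3.03%) in the cells with 2 divisions. They enter no comparison made gene by gene above. They are part of the isoform totals, the multi-exon shares and the library sizes used for thinning. The totals of intron chains and of 3′ ends, and the last exon families, were not limited to annotated genes either. Of the 917, 91.9% had a single exon, 92.9% ended before an A-rich stretch of genome, and 751 (81.9%) lay over a gene of the other strand only. Of the 316, 90.2% had a single exon, 85.1% ended before an A-rich stretch and 207 (65.5%) lay over a gene of the other strand only. Their cause was not tested.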

How the results depend on the processing

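No paired analysis was possible because each condition is 1 library and the result comes from no test, and no replicate could be left out. Of 27 alternatives, 22 moved a share beyond its interval and 5 did not. Genes seen only in the undivided library (26.7%) came to 24.2% with that library thinned, 14.4% with at least 2 isoforms needed and 29.7% without ends before an A-rich stretch. Genes seen only in the naive library (13.9%) came to 18.9%, 5.63% and 12.6% under these settings and 12.9% with multi-exon isoforms only. Naive chains found again (64.5%) came to 56.3% with thinning and 80.7% when a part of a chain counted as shared. Genes with no shared chain (8.96%) came to 3.71% where each library had 2 or more isoforms, and 5.53% when a part counted as shared. Genes with no shared first exon (2.47%) came to 0.8% with at least 2 isoforms, 1.43% with annotated first exons only and 3.19% when starts within 100 nt were compared. Genes with no shared last exon (2.2%) came to 0.145% with at least 2 isoforms and 1.4% with annotated ones only. Genes with no shared 3′ end (5.02%) came to 0.481% with at least 2 isoforms, 6.37% with ends merged within 10 nt, 4.35% with multi-exon isoforms only and 2.7% without A-rich ends. The shorter share among changed families (69.6%) came to 73.2% for changes over 200 nt and to 54.5% with the longest exon in place of the mean. It stayed above the longer share in each setting. Read depth per isoform is unknown, so a feature that was not found is not shown to be absent.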
